A study of Homo sapiens with 6 samples.

Results

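The enzymes that make serine and glycine and pass their carbon to folate are described here by the RNA of 10 genes, namely PHGDH, PSAT1, PSPH, SHMT1, SHMT2, MTHFD1, MTHFD2, MTHFD1L, ALDH1L2 and GLDC. They were chosen by name, with earlier results of these data known, out of the 61552 gene identifiers of the count tables. Each matched a single Ensembl identifier. The RNA came from MDA-MB-231, a long-established cell line of human triple-negative breast cancer. The cells had been treated for 24 h with 10 μM VNLG-152R, a compound described as a degrader of the kinases MNK1 and MNK2, or with the vehicle DMSO for the same time. Each group had 3 samples, and the sources used here do not say whether these were independent cultures. The p-values therefore reflect no spread beyond that among these 3 samples a group, pooled in part over all genes tested. That spread may be technical.

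PHGDH, PSAT1 and PSPH are the consecutive enzymes that turn a glycolytic intermediate into serine. The hydroxymethyltransferases SHMT1, in the cytosol, and SHMT2, in mitochondria, split serine into glycine and a carbon unit carried by tetrahydrofolate. MTHFD2, MTHFD1L and ALDH1L2 process that unit in mitochondria, MTHFD1 does so in the cytosol, and GLDC is the decarboxylase of the mitochondrial glycine cleavage system. The carbon units feed purine and thymidylate synthesis, and several of these genes are known targets of the stress-response transcription factor ATF4.

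Counts assigned to genes ran from 69923839 to 82151816 in VNLG-152R-treated libraries and from 60122936 to 68583224 in vehicle controls. Of 7 marker genes of the line, every one was expressed, with a summed level of 6835 to 8714 CPM (counts scaled to library size, with TMM factors) in treated cells and 8755 to 9367 CPM in controls. The difference lay mostly in VIM, the intermediate filament vimentin, with a mean of 3867 CPM in treated cells and 5079 CPM in controls. VIM was called lower (adjusted p = 0.0472 from edgeR), as was CAV1, at 238 CPM in treated cells and 359 CPM in controls (adjusted p = 0.0048 from edgeR). KRT18 was below every control in each treated library, and FOSL1 and TGFBI were above every control, but none of these passed. CD44 and MSN overlapped between groups. The part of these marker levels in the results was not tested. ESR1, PGR and CDH1, which mark hormone receptor-positive and epithelial cells, stayed under 1 CPM in every library, and ERBB2 did not. Of 7 markers of blood, endothelial, liver and fibroblast cells, 5 were under 1 CPM in every library, and their summed level was 41.2 to 42.8 CPM in treated cells and 38.6 to 41.5 CPM in controls, carried by PECAM1 and COL1A1.

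RNA of this set was lower after VNLG-152R, with PSAT1, PSPH and MTHFD2 past the test. The 10 genes together summed to 980, 930 and 969 CPM in treated replicates 1 to 3, against 1122, 1147 and 1154 CPM in control replicates 1 to 3, here without TMM factors. Of the 10, 9 passed the expression filter, and each of these 9 was above the filter's level in both groups. In edgeR's quasi-likelihood test, with p-values adjusted by the Benjamini-Hochberg method over 17084 genes and a threshold of 0.05, 3 of the 9 fell, 0 rose and 6 did not pass. Over all genes tested, 1.43% fell and 3.76% rose, 5.19% in all. At an unadjusted p under 0.05 in edgeR, 6 of the 9 were lower and 0 higher. Such a p was common, as at least 3602 of the 17084 genes had it in either direction. DESeq2 called 4 members lower and 0 higher, beside 542 lower and 917 higher of 14120 genes. Limma-voom called 3 members lower and 0 higher, beside 230 lower and 596 higher of 17084 genes. All 9 log2 fold changes were negative, with a median of -0.35, beside a median of 0.00 and 50.4% negative over all genes tested. In 6 of the 9, every treated library lay below every control library, which held for 13.4% of all genes, and in 0 did every treated library lie above, which held for 15.1%. As the set was chosen with earlier results of these data known, the shares over all genes describe it and do not test it. These are bulk samples, in which fewer cells that express a gene and less of its RNA per cell cannot be told apart.

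**Figure D1:**
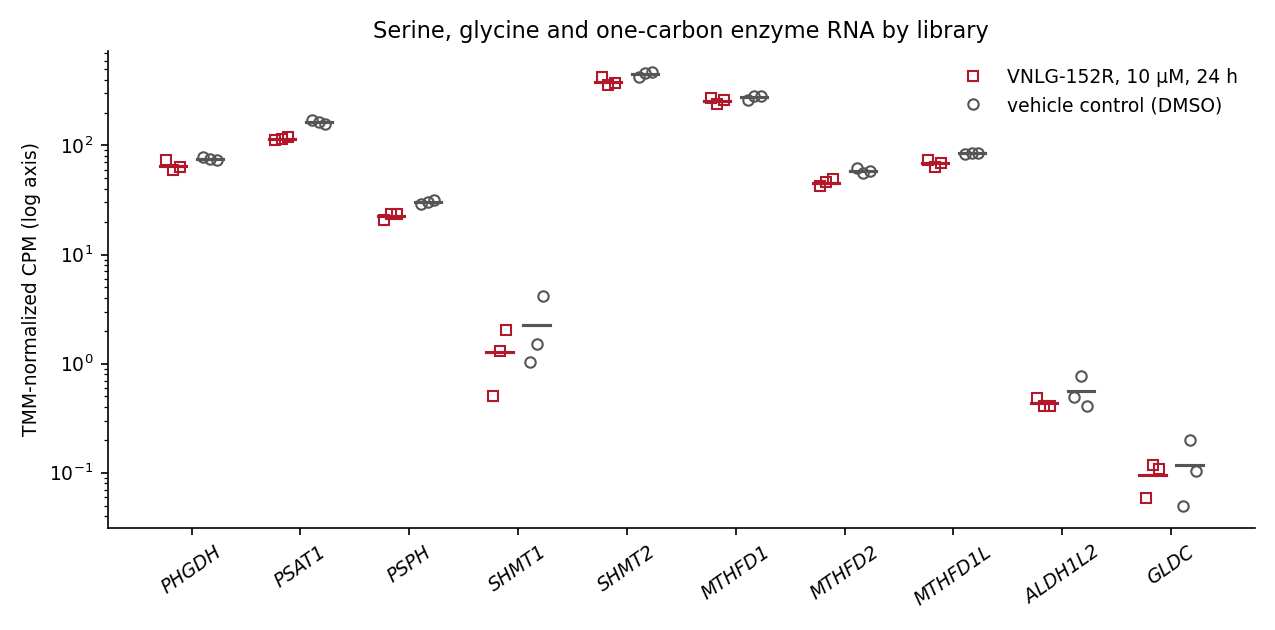
CPM on a log axis for the 10 enzyme genes. Red squares are the 3 VNLG-152R libraries, grey circles the 3 vehicle control libraries and lines the group means; in PHGDH, PSAT1, PSPH, SHMT2, MTHFD2 and MTHFD1L each red square lies below each grey circle.

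The serine synthesis branch held the clearest change. PSAT1, the aminotransferase of the second step, lies on chromosome 9 from 78297143 to 78330093 (GRCh38, plus strand). It had 113, 115 and 119 CPM in treated replicates 1 to 3, against 170, 163 and 157 CPM in control replicates 1 to 3. The groups were well apart, since the highest treated library was still below the lowest control library. PSAT1 fell to 116 ± 3.17 CPM in VNLG-152R-treated cells, against 163 ± 6.32 CPM in controls (SD, n = 3 each). The log2 change of PSAT1 came to -0.50 (standard error 0.08, 95% interval -0.67 to -0.33, adjusted p = 0.0033 from edgeR). PSAT1 was still called after the removal of any one library, with log2 fold changes from -0.53 to -0.47 and adjusted p-values up to 0.0191.

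PSPH, the phosphatase of the last step, lies on chromosome 7 from 56011051 to 56051604 (minus strand). It had 20.8, 23.8 and 23.3 CPM in treated replicates 1 to 3, against 29.2, 30.2 and 31.3 CPM in control replicates 1 to 3. As with PSAT1, the groups did not overlap, and treated replicate 1 was the lowest library. The log2 fold change was -0.42 (standard error 0.09, 95% interval -0.60 to -0.23, adjusted p = 0.017 from edgeR). PSPH did not pass without treated replicate 3 (adjusted p = 0.0503) or control replicate 3 (adjusted p = 0.104).

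Part of PSPH has a near-identical copy in the pseudogene PSPHP1. Reads from such a stretch can be placed at the wrong gene or, where they match both equally, left out as not unique. PSPHP1 is annotated on chromosome 7 from 55764797 to 55773288, with a transcript of 261 bases, of which 150 were aligned. A coding stretch of PSPH that spans exons 5, 6 and 7 (chr7:56015170-56019601, minus strand) and the start of PSPHP1 (chr7:55764797-55764946, plus strand) are shown to compare them, with differing bases in capitals. Both were read from GENCODE 29 transcripts on GRCh38.
PSPH: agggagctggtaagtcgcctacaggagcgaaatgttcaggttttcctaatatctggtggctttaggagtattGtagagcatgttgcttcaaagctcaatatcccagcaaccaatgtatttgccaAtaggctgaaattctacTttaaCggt
PSPHP1: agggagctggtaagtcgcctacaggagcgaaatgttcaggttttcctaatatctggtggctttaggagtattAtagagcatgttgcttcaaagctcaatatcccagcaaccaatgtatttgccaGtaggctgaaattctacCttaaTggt
Over these 150 bases 146 are identical (97.3%), and the 4 differences are G73A, A125G, T142C and C147T, with the base of PSPH first and positions counted from 1 at the left end. The first 72 bases are the same in both. PSPHP1 had 3.71, 8.45 and 5.26 CPM in treated replicates 1 to 3, against 5.49, 6.03 and 5.53 CPM in control replicates 1 to 3, so the groups overlapped and treated replicate 2 was the highest. It made up 15.0% to 26.2% of the summed counts of both genes. With the counts summed, the treated libraries stayed below the controls, at 24.6, 32.2 and 28.6 CPM against 34.7, 36.2 and 36.8 CPM, but the log2 fold change was -0.34 and did not pass (adjusted p = 0.0743 from edgeR).

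PHGDH, the dehydrogenase of the first step, lies on chromosome 1 from 119648411 to 119744226 (plus strand). Its level was 73.1, 59.7 and 63.4 CPM in treated replicates 1 to 3, against 78.5, 74.7 and 73.6 CPM in control replicates 1 to 3. The groups did not overlap, but treated replicate 1 lay only just below the lowest control. The log2 fold change was -0.21 (standard error 0.09, 95% interval -0.41 to -0.01) and did not pass (adjusted p = 0.199 from edgeR).

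Ratios between genes of the same library do not depend on how libraries are scaled. The count of PSAT1 over that of PHGDH was 1.54, 1.92 and 1.88 in treated replicates 1 to 3, against 2.16, 2.18 and 2.14 in control replicates 1 to 3. Every treated ratio lay below every control ratio, so PSAT1 was lower relative to PHGDH as well as in CPM. The ratio of PSPH to PHGDH overlapped between groups, at 0.350 ± 0.0586 in treated cells and 0.401 ± 0.0267 in controls (SD, n = 3 each). An exact permutation test of 3 against 3 libraries has 0.10 as its smallest p, and ratios are therefore given without one.

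**Figure D2:**
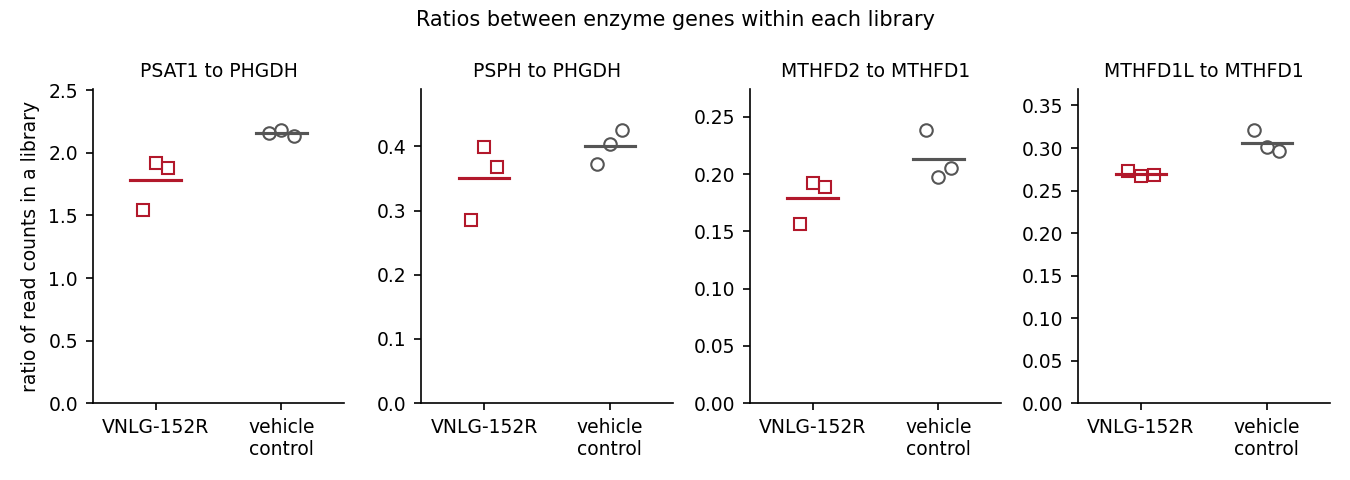
Ratio of the read counts of paired enzyme genes within each library. Red squares are VNLG-152R libraries, grey circles vehicle controls and lines the group means; the groups are apart for PSAT1 to PHGDH, MTHFD2 to MTHFD1 and MTHFD1L to MTHFD1 and overlap for PSPH to PHGDH.

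SHMT2, the mitochondrial hydroxymethyltransferase, lies on chromosome 12 from 57229327 to 57234935 (plus strand) and gave the most counts of the set. It had 419.7, 356 and 377 CPM in treated replicates 1 to 3, against 426, 461 and 467 CPM in control replicates 1 to 3. The groups did not overlap, although treated replicate 1 came close to control replicate 1. The log2 fold change was -0.23 (standard error 0.09, 95% interval -0.43 to -0.04) and did not pass (adjusted p = 0.151 from edgeR). Genes of the opposite strand lie under 9.5% of its exons.

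SHMT1, its cytosolic counterpart, lies on chromosome 17 from 18327860 to 18363563 (minus strand) and was scarce. It had 34, 100 and 167 counts in treated replicates 1 to 3 and 63, 91 and 286 counts in control replicates 1 to 3. These are 0.503, 1.31 and 2.02 CPM in treated libraries, against 1.04, 1.51 and 4.2 CPM in controls. The groups overlapped, and the spread within each group was wider than the difference between them. The log2 fold change was -0.81 with a 95% interval from -1.87 to 0.25 (adjusted p = 0.352 from edgeR), and it turned to 0.02 without control replicate 3, which held the highest value. With no expression filter SHMT1 was called lower (adjusted p = 0.00166). SHMT2 outnumbered SHMT1 by 835, 272 and 187 counts to 1 in treated replicates 1 to 3, and by 412, 305 and 111 to 1 in control replicates 1 to 3.

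MTHFD2, the mitochondrial methylenetetrahydrofolate dehydrogenase and cyclohydrolase, lies on chromosome 2 from 74198562 to 74217565 (plus strand). It had 42.3, 45.8 and 48.8 CPM in treated replicates 1 to 3, against 61.6, 56.3 and 58.4 CPM in control replicates 1 to 3. The groups did not overlap. Its log2 fold change was -0.37 (standard error 0.09, 95% interval -0.55 to -0.18, adjusted p = 0.0325 from edgeR). The call was lost after the removal of any one library, with adjusted p-values from 0.0547 without treated replicate 3 to 0.126 without control replicate 3, while the log2 fold change stayed between -0.42 and -0.31. Of its merged exons, 33.2% lie opposite genes of the other strand, SLC4A5 among them, and the strand setting of the counting is not given in the sources used here.

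MTHFD1L, the mitochondrial formyltetrahydrofolate synthetase that releases formate, lies on chromosome 6 from 150865549 to 151101887 (plus strand). It had 73.7, 63.7 and 69.5 CPM in treated replicates 1 to 3, against 83.0, 85.9 and 84.6 CPM in control replicates 1 to 3. The controls lay close together and above every treated library. The log2 fold change was -0.29 (standard error 0.08, 95% interval -0.47 to -0.11), just short of the threshold (adjusted p = 0.0629 from edgeR). It passed with DESeq2 (adjusted p = 0.0163), with library size as the only scaling (adjusted p = 0.0499) and without treated replicate 1 (adjusted p = 0.0373).

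MTHFD1, the cytosolic enzyme that joins the activities of both in a single protein, lies on chromosome 14 from 64388031 to 64463457 (plus strand). Its level was 269.9, 238 and 259 CPM in treated replicates 1 to 3, against 258, 286 and 285 CPM in control replicates 1 to 3, and the groups overlapped. The log2 fold change was -0.11 with a 95% interval from -0.30 to 0.07 (adjusted p = 0.462 from edgeR), which does not show that the groups were alike. Relative to MTHFD1 both mitochondrial enzymes were lower in every treated library. The MTHFD2 to MTHFD1 ratio was 0.179 ± 0.0195 in treated cells and 0.213 ± 0.022 in controls, and the MTHFD1L to MTHFD1 ratio was 0.270 ± 0.00303 in treated cells and 0.306 ± 0.0131 in controls (SD, n = 3 each). For MTHFD2 the groups came close, at 0.192 in treated replicate 2 and 0.197 in control replicate 2. The MTHFD2 to SHMT2 ratio overlapped between groups, at 0.120 ± 0.0163 in treated cells and 0.131 ± 0.0121 in controls (SD, n = 3 each). Genes on the opposite strand lie under 11% of the MTHFD1 exons.

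ALDH1L2 and GLDC were close to undetected. ALDH1L2, the mitochondrial formyltetrahydrofolate dehydrogenase, lies on chromosome 12 from 105019784 to 105084577 (minus strand) and had 33, 31 and 34 counts in treated replicates 1 to 3 and 30, 46 and 28 counts in control replicates 1 to 3. The groups overlapped, and the log2 fold change of -0.35 had a 95% interval from -0.97 to 0.27 (adjusted p = 0.496 from edgeR). GLDC lies on chromosome 9 from 6532464 to 6645783 (minus strand). It had 4, 9 and 9 counts in treated replicates 1 to 3 and 3, 12 and 7 counts in control replicates 1 to 3, was too low for the expression filter and has no test. Its counts summed to 22 in each group, with an exact 95% Poisson interval of 13.8 to 33.3 that covers counting error only. A change in GLDC within that counting error could not be detected at this depth.

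**Figure D3:**
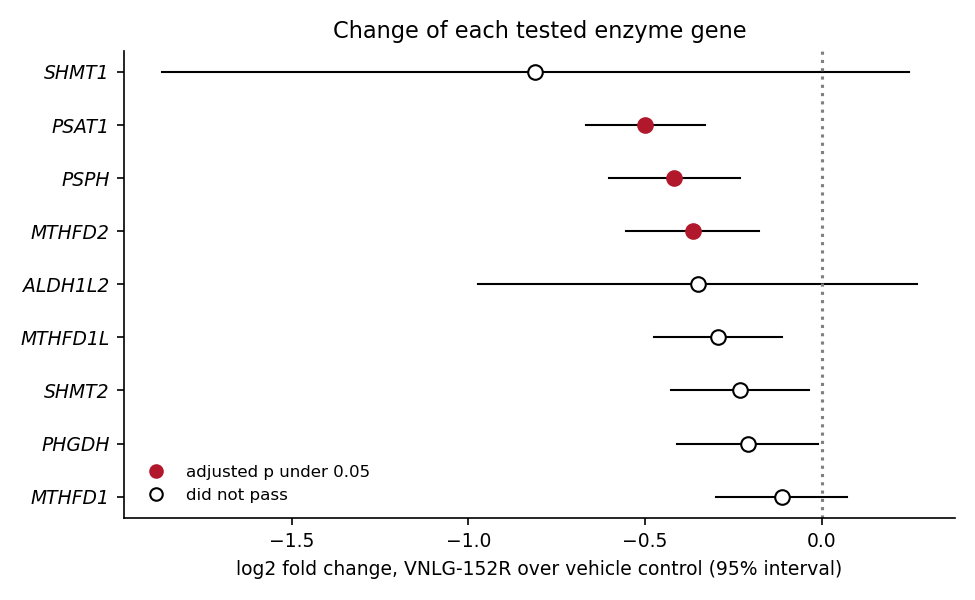
Log2 fold change of VNLG-152R over vehicle control for the 9 tested enzyme genes, with 95% intervals from edgeR. Points filled in red passed the 0.05 threshold and open points did not; every point is below 0, and the intervals of SHMT1, ALDH1L2 and MTHFD1 include 0.

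Levels between genes were compared as CPM per kilobase of merged exon. In treated cells the order was SHMT2 (79.4 ± 6.71), PSAT1 (52.8 ± 1.45), MTHFD1 (27.3 ± 1.7), MTHFD1L (13.7 ± 0.997), MTHFD2 (9.37 ± 0.668), PSPH (8.20 ± 0.57) and PHGDH (7.09 ± 0.755; SD, n = 3 each). SHMT1, ALDH1L2 and GLDC followed at 0.175, 0.0511 and 0.0107. In controls the order was the same, from SHMT2 at 93.3 ± 4.51 and PSAT1 at 74.7 ± 2.89 to PSPH at 10.9 ± 0.379 and PHGDH at 8.20 ± 0.279. Neighbors in this order did not overlap between libraries of a group, with the exception of PSPH and PHGDH in treated cells. The places of PHGDH and of PSPH depend on the length used. Per kilobase of the longest transcript PHGDH stood at 20.6 in treated cells and 23.8 in controls, above MTHFD1L at 19.1 and 23.5. PSPH stood at 10.4 in treated cells and 13.9 in controls, above MTHFD2 at 10.2 and 13.2.

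The starts of 7 of the 10 genes, all but PSPH, SHMT2 and ALDH1L2, were matched in a RefSeq table of windows from 250 bases before to 50 after a start (GRCh38.p14). Windows were searched on both strands for TGATGNAA, a core of the response element bound by ATF4, for the E-box CACGTG and for the GC box GGGCGG. These sequences are shown because PSAT1 and MTHFD2 fell and MTHFD1L lay just short of the threshold. Matches are in capitals, the MTHFD2 stretch stops before its first annotated start, and of MTHFD1L only the surroundings of the match are given. Unlike the others, the MTHFD1L stretch lies inside the annotated gene, past its first annotated start at 150865549.
PSAT1: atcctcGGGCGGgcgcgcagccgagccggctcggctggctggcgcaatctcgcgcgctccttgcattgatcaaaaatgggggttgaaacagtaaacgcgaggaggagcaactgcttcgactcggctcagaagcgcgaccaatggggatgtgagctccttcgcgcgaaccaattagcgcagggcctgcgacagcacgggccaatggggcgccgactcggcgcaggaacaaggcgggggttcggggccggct
MTHFD2: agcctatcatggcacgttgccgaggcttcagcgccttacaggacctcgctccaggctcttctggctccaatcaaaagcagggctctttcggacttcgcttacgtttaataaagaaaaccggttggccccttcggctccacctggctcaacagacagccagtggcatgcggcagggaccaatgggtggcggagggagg
MTHFD1L: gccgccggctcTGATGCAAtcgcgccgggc
The PSAT1 stretch is chr9:78296875-78297124, that of MTHFD2 is chr2:74198365-74198561 and that of MTHFD1L is chr6:150866346-150866375, all on the plus strand. TGATGNAA was found in the windows of 1 of the 7 genes, MTHFD1L, and in 3.62% of all 35116 windows. CACGTG was found for MTHFD1L and MTHFD1, against 7.26% of all windows, and GGGCGG for 4 of the 7 genes, PSAT1, MTHFD1L, SHMT1 and GLDC, against 45.0% of all windows. The counts are by gene and the shares by window, so they are not like for like. The 7 genes had 10 windows, several of them of MTHFD1L. A match is a run of letters and not a binding site, and a window that lacks a match says nothing of regions beyond it.

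Called genes of the neighboring pathways went in both directions. Over all genes tested, 3.76% rose and 1.43% fell, and at least 3602 of 17084 had an unadjusted p under 0.05 in edgeR. Of 14 tested genes of the folate cycle and folate transport, 1 rose and 1 fell, with a median log2 fold change of -0.02, or -0.07 without control replicate 2 and -0.08 without control replicate 3. TYMS, which uses the methylene carbon unit to make thymidylate and had the highest level per kilobase of this group, fell to 127 ± 3.51 CPM in treated cells, against 158 ± 10.2 CPM in controls (SD, n = 3 each). This was -0.31 on the log2 scale (adjusted p = 0.0481 in edgeR), and 46.6% of its merged exons lie opposite genes of the other strand. The groups did not overlap, but the TYMS call was lost after a correction for transcript length (adjusted p = 0.106 in edgeR) and after the removal of any one library (adjusted p-values up to 0.148).

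Of 10 tested genes of glycine cleavage and of serine or glycine handling, edgeR, DESeq2 and limma-voom each called 0 in either direction. At an unadjusted p under 0.05 edgeR and limma-voom had 0 and DESeq2 had 1 lower. The median log2 fold change was -0.06. SLC1A5, a neutral amino acid carrier with the highest level per kilobase of this group, had 414 ± 86.3 CPM in treated cells and 454 ± 31.4 CPM in controls (SD, n = 3 each). Of 11 genes of purine synthesis, which takes up formyl units, 9 had negative log2 fold changes, with a median of -0.19 that came to -0.08 without control replicate 1. Only ADSS1, an adenylosuccinate synthase, passed in edgeR, and it rose (0.72 on the log2 scale, adjusted p = 0.0249), a call lost without treated replicate 2, control replicate 1 or control replicate 3 (adjusted p-values up to 0.101). EdgeR called 0 of the 11 lower, with 5 lower and 1 higher at an unadjusted p under 0.05. DESeq2 called 2 lower and 1 higher, beside 542 lower and 917 higher over all genes. IMPDH2, the most abundant per kilobase, stood at -0.19 on the log2 scale (adjusted p = 0.205 in edgeR).

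In the methionine cycle and transsulfuration, edgeR called 2 of 6 tested genes higher and 0 lower. At an unadjusted p under 0.05, edgeR had 3 higher and 2 lower. DESeq2 and limma-voom called 1 and 2 higher, and also 0 lower. CTH, which makes cysteine from cystathionine, rose to 9.88 ± 0.461 CPM in treated cells, against 7.35 ± 0.613 CPM in controls (SD, n = 3 each), or 0.43 on the log2 scale (adjusted p = 0.0373 in edgeR). GNMT, a glycine methyltransferase, rose by 1.52 on the log2 scale (adjusted p = 0.0415 from edgeR) from few reads, with 26, 29 and 21 counts in treated replicates and 4, 9 and 9 counts in controls. The GNMT call was lost after the removal of any one library (adjusted p-values up to 0.143), and that of CTH without any library other than treated replicate 1 (up to 0.126). The highest levels per kilobase of merged exon were those of AHCY, which breaks down S-adenosylhomocysteine, and the related AHCYL1. AHCY had 45.7 in treated cells and 52.4 in controls, and AHCYL1 had 51.2 in treated cells and 45.2 in controls. Neither passed, with log2 fold changes of -0.20 for AHCY (adjusted p = 0.197) and 0.18 for AHCYL1 (adjusted p = 0.188 in edgeR).

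Of 14 tested genes made up of ATF4 and other targets of it, 1 rose and 2 fell, with a median log2 fold change of 0.06, or 0.14 with a 1 CPM minimum mean as the filter. ATF4 itself had 272, 253 and 276 CPM in treated replicates 1 to 3, against 303, 313 and 314 CPM in control replicates 1 to 3. All treated libraries were below all controls, but the log2 fold change of -0.21 did not pass (adjusted p = 0.136 from edgeR). ATF5, a related transcription factor, and CHAC1, an enzyme that breaks down glutathione, fell, with log2 fold changes of -0.56 for ATF5 (adjusted p = 0.0123) and -0.68 for CHAC1 (adjusted p = 0.0146). ATF5 had 24.6 ± 3.05 CPM in treated cells and 36.2 ± 3.49 CPM in controls, and CHAC1 had 7.51 ± 1.44 CPM in treated cells and 12.1 ± 0.978 CPM in controls (SD, n = 3 each). Without control replicate 3 neither passed (adjusted p = 0.074 for ATF5 and 0.0693 for CHAC1 in edgeR), and CHAC1 did not pass without treated replicate 3 (adjusted p = 0.0519). The angiogenic factor VEGFA rose to 726 ± 71.98 CPM in treated cells, against 456 ± 17.8 CPM in controls (SD, n = 3 each), or 0.67 on the log2 scale (adjusted p = 0.00157 in edgeR), and still passed after the removal of any one library. With the length correction its log2 fold change was 0.46 (adjusted p = 0.0139).

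**Figure D4:**
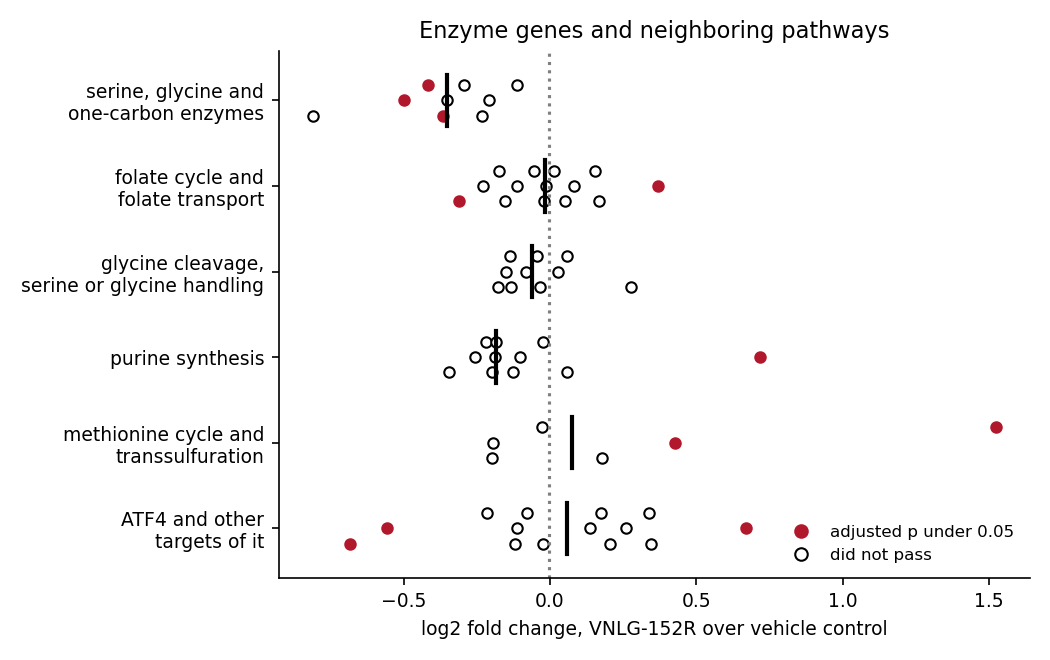
Log2 fold change of VNLG-152R over vehicle control for each tested gene of the enzyme set and of the neighboring pathways. Filled red points passed at an adjusted p under 0.05, black lines are list medians and the dotted line is the median of all tested genes; the enzyme set has its median at -0.35 and the ATF4 list at 0.06.

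Calls in the enzyme set depended on single libraries in different degree. The number that fell was 1 without treated replicate 3 or control replicate 3, 2 without treated replicate 2, control replicate 1 or control replicate 2, and 3 without treated replicate 1. Calls over all genes shifted too, from 245 lower with every library to 71 without treated replicate 3 and 44 without control replicate 3. They were 142 without treated replicate 2, 104 without control replicate 1, 141 without control replicate 2 and 347 without treated replicate 1. PSAT1 was called lower in each of these 6 fits, and MTHFD2 in none. Read pairs outside every annotated gene made up 3.52%, 5.05% and 3.36% of pairs in treated replicates 1 to 3, against 3.17%, 2.63% and 3.05% in control replicates 1 to 3. Their part in the result was not tested. Without treated replicate 2, where they were most frequent, the log2 fold changes of PSAT1, PSPH and MTHFD2 were -0.49, -0.45 and -0.37. Log2 fold changes rose with transcript length across genes (Spearman's rho 0.22 over 16731 genes, which are not independent replicates). After a correction for it those of PSAT1, PSPH and MTHFD2 were -0.45, -0.37 and -0.39, and all were still called.

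**Figure D5:**
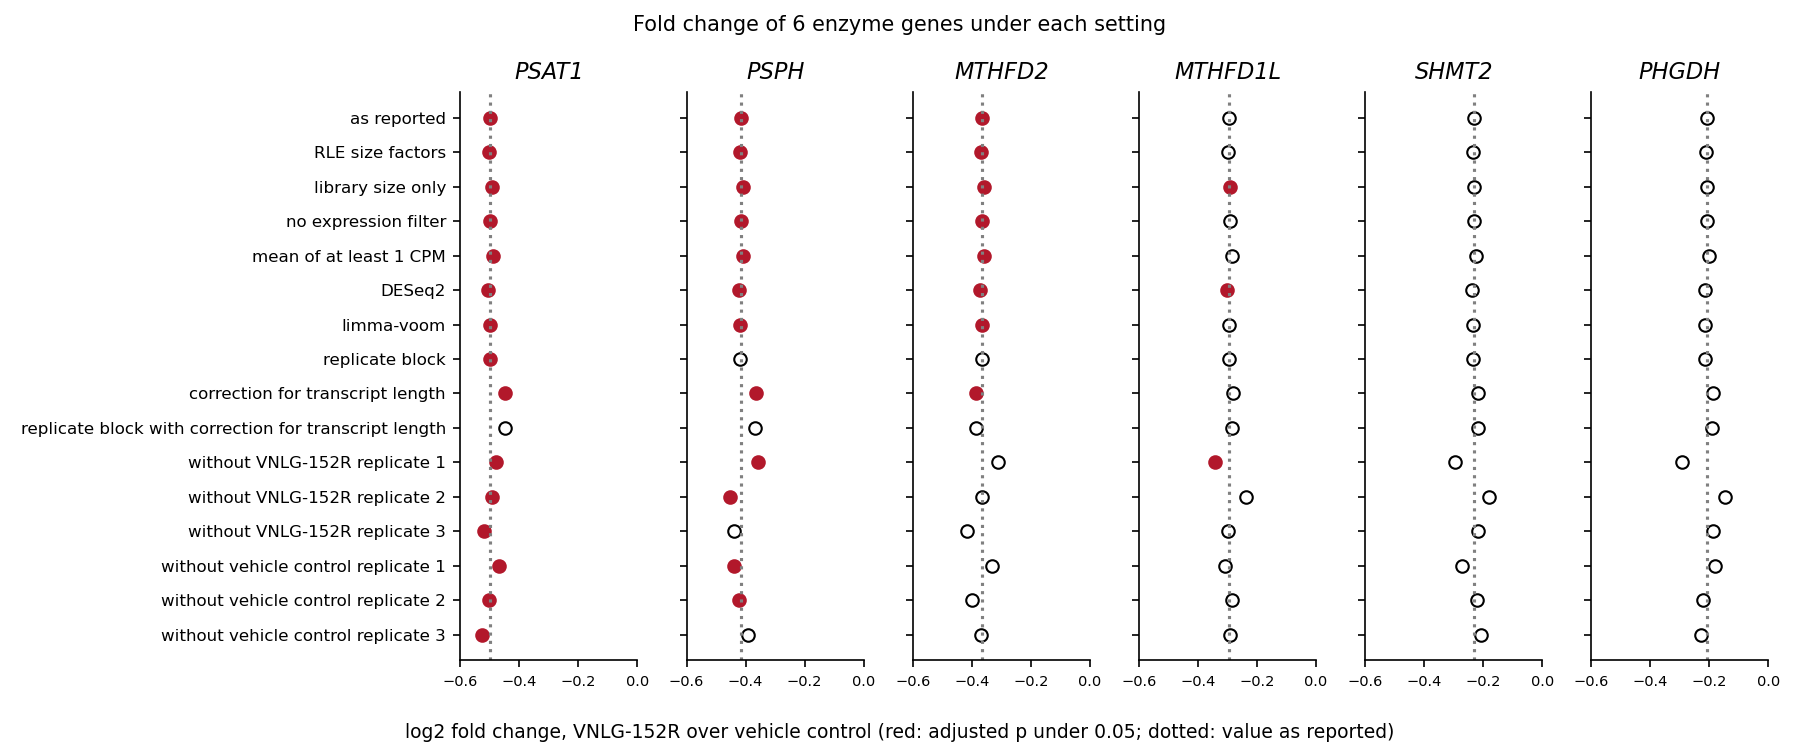
Log2 fold change of 6 enzyme genes as reported and under each alternative, 1 row per setting. Red marks a call at the 0.05 threshold, open points are not called, and dotted lines mark the reported value; values of PSAT1 lie between -0.53 and -0.45 and pass in every row but the replicate block with length correction.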

How the data were processed

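PolyA RNA of 6 MDA-MB-231 samples was read by the authors from paired ends of stranded libraries. For each sample the authors deposited raw read counts by Ensembl gene. The submitters' processing notes name HISAT, HTSeq, DESeq and GRCh38, without versions. Which annotation release and strand setting were used is not given in these sources. HTSeq's classes that name no gene were left out of totals: 2.63% to 5.05% of pairs had no feature and 7.81% to 8.12% were not unique. Pairs ambiguous between genes were 4.81% to 5.16% of pairs, so a gene that shares exons on its strand is undercounted.

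The comparison used edgeR 4.0.16 (R 4.3.3) and its quasi-likelihood test. TMM factors were applied, filterByExpr left 17084 genes, and the common biological coefficient of variation came to 0.105. Benjamini-Hochberg adjustment covered every gene tested, and calls needed an adjusted p under 0.05. Standard errors are the log2 fold change over the square root of F, and 95% intervals use the moderated degrees of freedom. Coordinates, lengths and overlaps come from GENCODE 29 (GRCh38), and symbols from a gene table that matched 61399 of 61552 identifiers. The alternatives tried were DESeq2 1.42.0, limma-voom (limma 3.58.1), scaling by RLE or by library size alone, no filter, a 1 CPM minimum mean, a length correction (lowess, span 0.3), the replicate number as a block, other thresholds and leaving out each library. Summing PSPH with PSPHP1 was chosen after seeing the data. The test was tested on simulated counts. Named genes are all 10 members and, from 5 lists of neighboring pathways, up to 4 called genes in each direction and the gene of highest level, of which 1 result is not reported here. The members and lists were chosen with earlier results of these data known.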

Additional observations from a re-analysis of the deposited data

Results flagged for a closer look

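The share of read pairs that fell in no annotated gene lies outside the gene counts, and it was above the level of every control library in each treated library. It was 3.52%, 5.05% and 3.36% in VNLG-152R replicates 1 to 3, against 3.17%, 2.63% and 3.05% in vehicle control replicates 1 to 3. Its part in the lower enzyme RNA was not tested. Groups of 3 libraries are too small for a check of single outlying samples, so none was made.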

How the results depend on the processing

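The number of enzyme genes that fell was 3 as reported, 1 at an adjusted p under 0.01, 1 with the replicate number as a block, 0 with the replicate block and the length correction together, and 1 to 3 when each library was left out. No enzyme gene rose under any of these settings. The median log2 fold change of the enzyme set lay between -0.34 and -0.28 after each such removal. SHMT1 ranged over log2 fold changes of -1.31 to 0.017 in the same fits, and its direction turned without control replicate 3 (0.017). Over all genes, 642 rose and 245 fell. With no expression filter these were 1056 and 483, at an adjusted p under 0.1 they were 1151 and 578, and at an adjusted p under 0.01 they were 210 and 44. With the replicate block they were 310 and 87, and with the block and the length correction 205 and 57. DESeq2 called 542 lower. Leaving out each library gave 220 to 601 higher and 44 to 347 lower. The replicate numbers did not pair the libraries: correlations of same-numbered libraries' deviations were -0.19, -0.17 and -0.11 across genes, and no library correlated best with its own number. The block left PSAT1 as the only enzyme gene called (adjusted p = 0.0275 from edgeR). The cause of these shifts was not tested. With both block and length correction the calls of VEGFA and CHAC1 were also lost (adjusted p = 0.0716 for VEGFA and 0.073 for CHAC1 from edgeR). For ALDH1L2 and GLDC, with at most 46 and 12 counts in a library, depth limits what can be seen. SHMT1 is limited by the spread between libraries, since its summed counts of 301 in treated cells (exact 95% Poisson interval 268 to 337) and 440 in controls (399.8 to 483) had intervals that did not overlap.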

Other observations

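Several neighbors of these enzymes were at or close to 0 in every library. MTAP and CBS had means of 0 CPM in treated cells and 0.011 and 0.0207 CPM in controls, BHMT2 and SESN2 are listed at 0 throughout, and SLC19A1, the reduced folate carrier, averaged 0.103 CPM in treated cells and 0.052 CPM in controls. ASNS, asparagine synthetase, averaged 0.442 CPM in treated cells and 0.479 CPM in controls, and 44.6% of its merged exons overlap a further gene of the same strand, as do 34.0% of those of MTHFS and 12% of those of GCSH. Pairs that touch more than 1 gene go to the ambiguous class of HTSeq, so low values of these 3 genes are not read as low expression. The same caution holds for SLC25A32, AMT and ADSL of the same lists, with such overlap over 69.7%, 63.1% and 18.9% of merged exons.

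Of 15 annotated pseudogenes named after the enzymes, only PSPHP1 and MTHFD1P1 passed the expression filter. MTHFD1P1 had 6, 11 and 22 counts in treated replicates 1 to 3 and 15, 14 and 15 counts in control replicates 1 to 3. No other pseudogene had more than 10 counts in a library.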
